A study of Mus musculus with 30 samples.

Results

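Formative epiblast genes are 8 genes, Fgf5, Otx2, Otx1, Pou3f1, Zic2, Sox3, Utf1 and Sall2, that mark the pluripotent cells of the early post-implantation embryo. They were taken by symbol from a gene count table of 55421 genes, where each symbol matched 1 row, and all 8 were among the 19868 genes that passed the filter on low counts. The study measured polyadenylated RNA in 30 libraries of E14 mouse embryonic stem cells, a male (XY) line of the 129P2/Ola background. Cells grew on gelatin in serum medium with LIF, the MEK inhibitor PD0325901 and the GSK3 inhibitor CHIR-99021. The 10 groups of 3 libraries came from 5 lines, each untreated or treated for 24 h. The TIR1 line carries Tir1, the plant F-box protein through which auxin (IAA, 500 µM) triggers destruction of proteins fused to the AID degron, and has no tagged cohesin factor named in its genotype. PDS5AB carries Tir1 with PDS5A-AID and PDS5B-AID, and WAPL carries Tir1 with WAPL-AID. These 3 lines received auxin alone. PDS5AB-NIPBL adds NIPBL-FKBP and RAD21-Halo to the PDS5AB alleles, and WAPL-NIPBL adds the same pair to the WAPL allele. Both of these combined lines received auxin with dTAG-13 (500 nM), which directs FKBP fusions to degradation. Each genotype was represented by 1 line, so a difference between untreated lines cannot be told apart from a difference between those lines in anything other than their tags. No group received dTAG-13 alone. When a combined line's treatment effect is compared with another line's, NIPBL loss cannot be told apart from dTAG-13, RAD21-Halo or the line itself. Depletion acts on the protein, so transcript counts do not check it.

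Naive stem cells pass through a formative state before they can respond to signals that specify germ layers or germ cells. FGF signalling through MEK and ERK drives that step, and the MEK inhibitor in this medium holds it back. During the transition OTX2 and POU3F1 act with OCT4 at newly active enhancers, Fgf5 is switched on, and naive factors decline. NIPBL supports loading and loop extrusion by cohesin, WAPL releases cohesin from chromatin, and PDS5A and PDS5B take part in both release and the arrest of extrusion.

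Library totals ran from 19632704 to 45539021 counts. Levels below are counts scaled to library size as CPM, with TMM factors, which spanned 0.95 to 1.13. The labels do not say whether the 3 libraries of a group were separate cultures, so the p-values measure the spread between these libraries, which may be technical. Library numbers fell in 2 sets, 1 to 21 for untreated TIR1 and both PDS5AB groups and 25 to 45 for the other groups. For the auxin effect in TIR1, and for comparisons of the other 3 lines with untreated TIR1, library set and group cannot be told apart. The 4 degron lines' own treatment effects lie within a set. A gene was called when its edgeR quasi-likelihood p, adjusted by Benjamini-Hochberg over all 19868 genes, was under 0.05. As the samples are bulk RNA, fewer cells expressing a gene and less RNA per cell cannot be told apart.

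The members differed widely in abundance. In untreated TIR1, level per kilobase of exon (CPM per kb, mean of 3 libraries) was 65.9 for Utf1, 8.72 for Zic2 and 2.57 for Sall2. It was 1.39 for Otx2, 0.703 for Sox3 and 0.437 for Pou3f1, and only 0.0199 for Otx1 and 0.0049 for Fgf5. Utf1 and Zic2 thus led the list in cells held in MEK inhibitor, while Fgf5 and Otx1 were near the limit of detection. The same order did not hold in untreated PDS5AB, where Otx1 reached 0.911 CPM per kb and Otx2 was lower at 0.805.

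**Figure D1:**
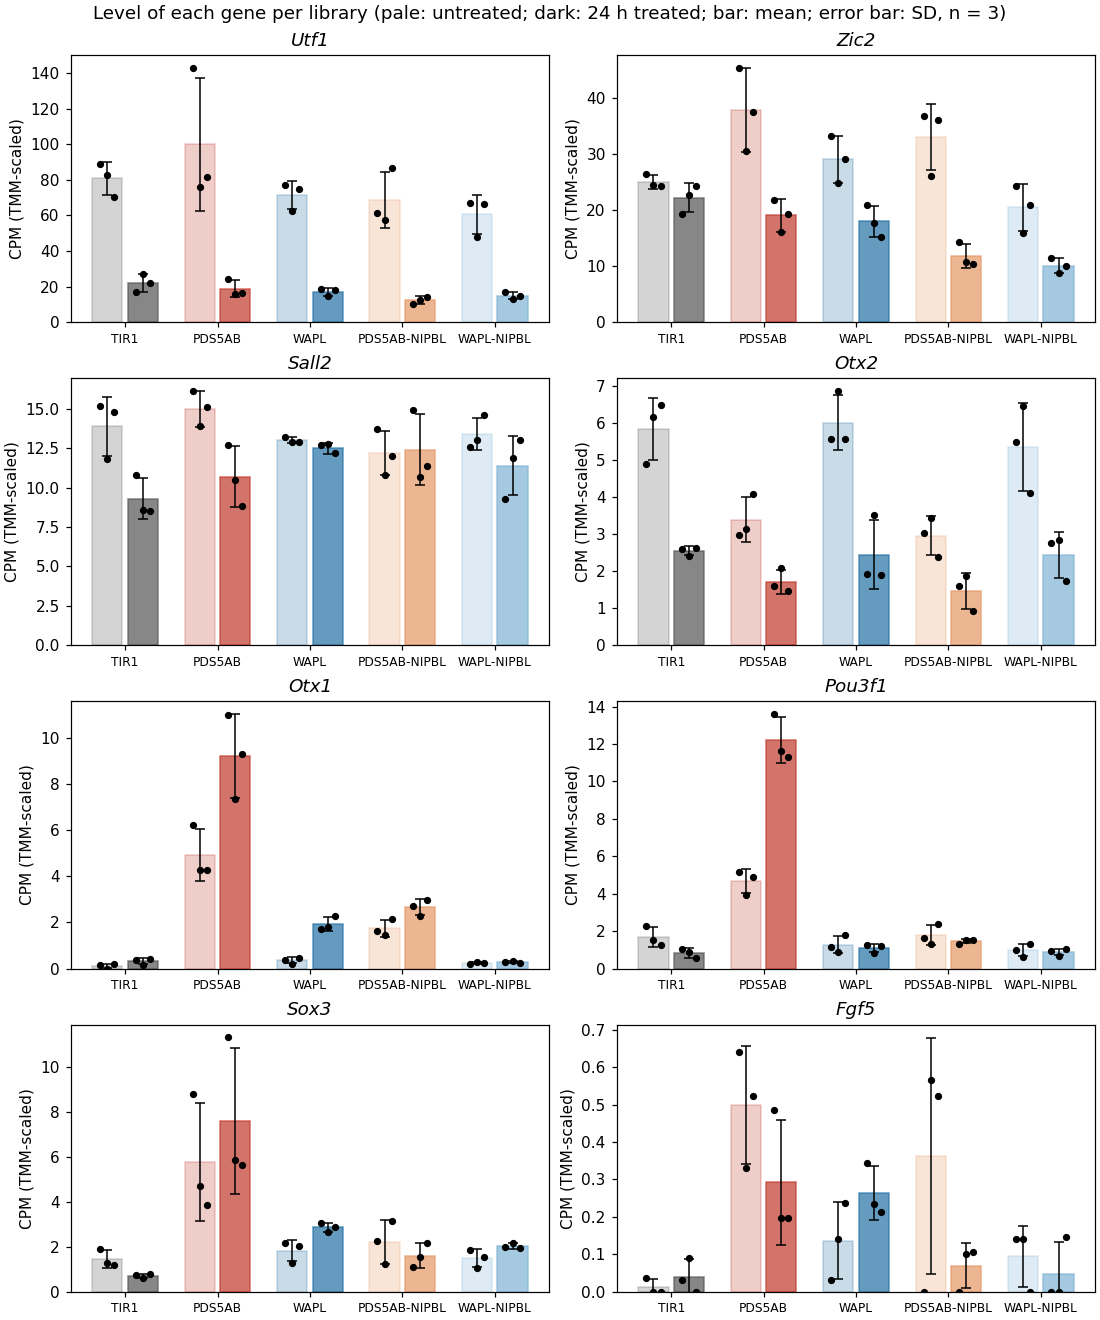
Level of each gene (TMM-scaled CPM, vertical axis of each panel) in the 5 lines (horizontal axis). Points are libraries, pale bars untreated means, dark bars means after 24 h of treatment, and error bars the SD (n = 3). Utf1 was lower in every treated library than in every untreated one, while Otx1 and Pou3f1 were highest in the PDS5AB line.

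After 24 h of treatment, Utf1 and Otx2 fell in all 5 lines, TIR1 included, and Zic2 fell in the 4 degron lines. Otx1 rose in PDS5AB and WAPL, Pou3f1 rose in PDS5AB alone among the calls, and Sall2 fell in TIR1 and PDS5AB. Sox3 and Fgf5 were not called in any line, but Sox3 passed in TIR1, PDS5AB and WAPL with the replicate number as a block within library set. Under that block the members called numbered 6 in TIR1, 7 in PDS5AB, 5 in WAPL and 4 in PDS5AB-NIPBL. In TIR1, 4 of 8 members were called, all lower (Utf1, Otx2, Pou3f1 and Sall2), where 10.3% of all tested genes were called higher and 9.46% lower. In PDS5AB, 2 were called higher and 4 lower, against backgrounds of 25.7% and 20.1%. In WAPL, 1 was called higher and 3 lower, against 16.9% and 15.7%. PDS5AB-NIPBL had 3 members called, Utf1, Otx2 and Zic2, all lower, against backgrounds of 11.3% higher and 7.94% lower. WAPL-NIPBL had the same 3 called lower, against 5.13% higher and 3.39% lower. The median log2 change over the 8 members was -0.81 in TIR1. It was -0.64 in PDS5AB and -0.13 in WAPL, and -0.75 and -0.45 in their combined lines with NIPBL, where the median of all tested genes was between -0.01 and 0.04.

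**Figure D2:**
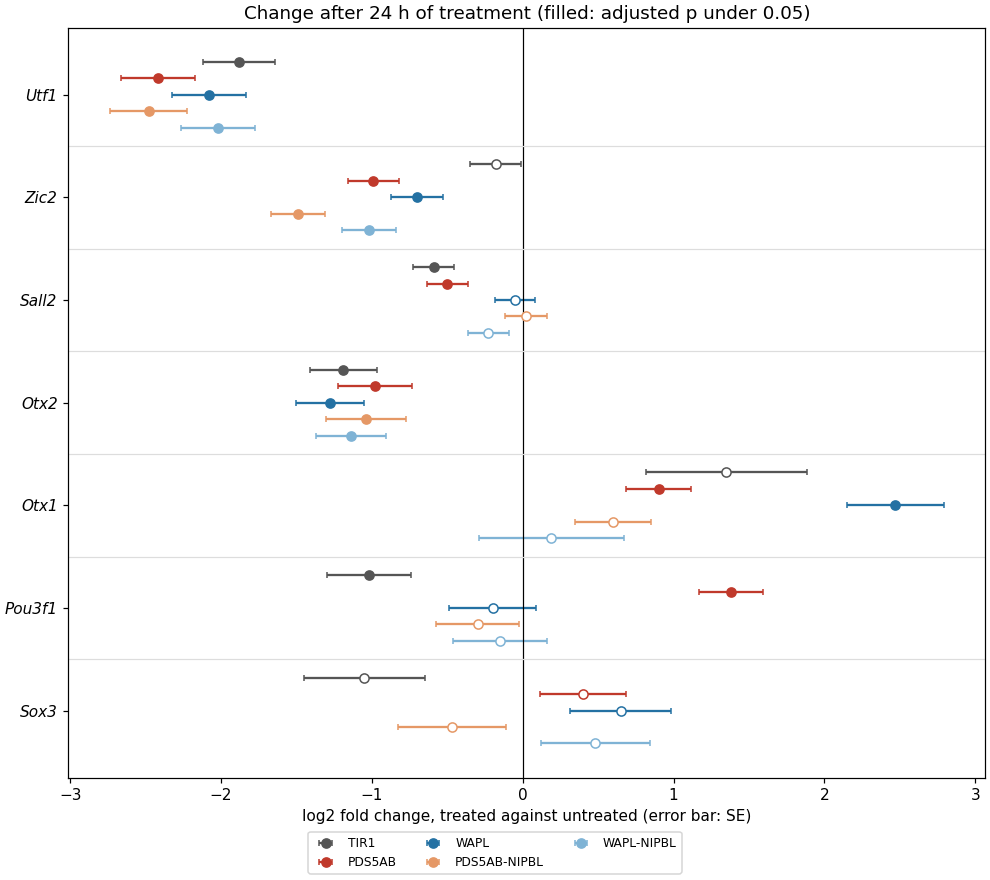
Treatment effect on 7 genes as log2 fold change, treated against untreated (horizontal axis), for the 5 lines. Points are edgeR estimates, error bars their SE, and filled points have an adjusted p under 0.05. Fgf5 is left out because its counts were between 0 and 19. Utf1 and Otx2 lie to the left in every line, and Pou3f1 lies to the right in PDS5AB only.

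Utf1 (ENSMUSG00000047751.9, chr7:139943789-139945112 on the plus strand, GRCm38) encodes a chromatin-associated factor of undifferentiated cells. It is known as a target of OCT4 and SOX2. In TIR1 it measured 89.0, 82.9 and 70.5 CPM untreated and 17, 26.9 and 21.9 CPM after auxin. In PDS5AB the values were 143, 76.2 and 81.3 CPM untreated and 24.2, 15.8 and 16.1 CPM treated. In WAPL they were 77.3, 62.6 and 74.9 CPM untreated and 18.5, 14.4 and 18.1 CPM treated. All treated libraries of these 3 lines lay below all their untreated ones. PDS5AB-NIPBL went from 61.3, 57.6 and 86.4 CPM to 9.93, 12.4 and 14.3 CPM. WAPL-NIPBL went from 67.2, 48.0 and 66.2 CPM to 16.9, 13.2 and 14.6 CPM. No treated library in any line overlapped an untreated library. Both groups of each degron line lie within a library set, while those of TIR1 lie in different sets. Utf1 fell by 1.88 on the log2 scale in TIR1 (SE 0.238, edgeR adjusted p = 9.95e-06). It fell by 2.42 in PDS5AB (SE 0.245, edgeR adjusted p = 5e-08) and by 2.08 in WAPL (SE 0.244, edgeR adjusted p = 8.45e-07). In the combined lines it fell by 2.48 with PDS5AB-NIPBL (SE 0.256, edgeR adjusted p = 3.64e-07) and by 2.02 with WAPL-NIPBL (SE 0.248, edgeR adjusted p = 1.02e-05).

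The fall of Utf1 in the degron lines was set against that in TIR1, the line without a tagged cohesin factor. The effect in PDS5AB minus that in TIR1 was -0.55 on the log2 scale (95% interval -1.24 to 0.14), and in WAPL minus TIR1 it was -0.20 (-0.90 to 0.49). For PDS5AB-NIPBL the difference was -0.61 (-1.32 to 0.11), and for WAPL-NIPBL it was -0.15 (-0.85 to 0.55). None of the 4 was called (edgeR adjusted p = 0.244, 0.728, 0.297 and 0.849), and the intervals leave room for a further fall of up to 1.32. With no filter on low counts, the PDS5AB and PDS5AB-NIPBL differences passed (edgeR adjusted p = 0.000127 and 0.000148). That fit gave far smaller p-values for Utf1 from the same libraries. For its fall in PDS5AB the edgeR adjusted p was 7.32e-142 there, against 5e-08 in the main fit. These 4 differences share the TIR1 libraries.

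Utf1 and Otx2 fell in every line, so the promoter of each, 250 bases before the annotated start to 50 after it, is shown 5′ to 3′ on the gene's own strand, from RefSeq on GRCm38.p6. Capitals mark matches on either strand to 3 words: TAATCC (letters bound by OTX-type homeodomains), ATTTGCAT (the POU octamer) and GCGTG (core letters of aryl hydrocarbon receptor sites). The Utf1 window is chr7:139943606-139943905, plus strand. The Otx2 window is chr14:48665060-48665359, minus strand, and is 1 of 4 annotated Otx2 starts, shown because it was the one with a TAATCC match.
Utf1: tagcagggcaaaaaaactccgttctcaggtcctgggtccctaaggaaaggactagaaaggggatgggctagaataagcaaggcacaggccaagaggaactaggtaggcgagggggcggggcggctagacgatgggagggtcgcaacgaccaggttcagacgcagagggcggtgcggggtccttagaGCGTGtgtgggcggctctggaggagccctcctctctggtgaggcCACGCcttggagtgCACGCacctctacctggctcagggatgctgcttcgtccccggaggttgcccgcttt
Otx2: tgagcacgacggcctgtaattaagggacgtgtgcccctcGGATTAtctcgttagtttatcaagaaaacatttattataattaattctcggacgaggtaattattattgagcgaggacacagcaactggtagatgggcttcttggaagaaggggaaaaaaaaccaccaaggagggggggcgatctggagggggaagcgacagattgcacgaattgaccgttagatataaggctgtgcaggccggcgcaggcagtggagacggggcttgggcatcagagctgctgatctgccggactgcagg
The Utf1 window held GCGTG 3 times, at -64 on the gene's strand and at -20 and -6 on the opposite strand, counted from the start. Of 32851 promoters of the same length, 32.4% held GCGTG at least once and 3.91% held it at least 3 times. The Otx2 window held TAATCC once, at -211 on the opposite strand, a word in 7.06% of promoters, a share per window where 4 Otx2 windows were searched. Another Otx2 window, chr14:48662685-48662984, held GCGTG at -237, and the Fgf5 window held it at 4. ATTTGCAT, in 1.74% of promoters, was not matched in either window. RefSeq promoters were matched for 4 members, Fgf5, Otx2, Utf1 and Sall2, and not for Otx1, Pou3f1, Zic2 and Sox3.

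Otx2 (ENSMUSG00000021848.16, chr14:48657677-48673819, minus strand) and Otx1 (ENSMUSG00000005917.15, chr11:21994764-22002897, minus strand) are paralogues encoding homeodomain factors. OTX2 opens the formative enhancer programme, and both act in anterior neural tissue. Treatment moved the pair in opposite directions in PDS5AB and WAPL. Otx2 measured 4.89, 6.16 and 6.49 CPM in untreated TIR1 and 2.61, 2.42 and 2.64 CPM after auxin. In WAPL it went from 5.59, 6.88 and 5.59 CPM to 1.92, 3.52 and 1.90 CPM. In PDS5AB it went from 2.97, 3.14 and 4.08 CPM to 1.60, 2.09 and 1.47 CPM. Treated and untreated libraries did not overlap in these 3 lines, and the starting level was lower in PDS5AB. In PDS5AB-NIPBL it went from 3.05, 3.44 and 2.39 CPM to 1.59, 1.87 and 0.931 CPM. In WAPL-NIPBL it went from 5.50, 6.48 and 4.12 CPM to 2.77, 2.85 and 1.74 CPM, so the combined lines' groups did not overlap either.

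The fall of Otx2 ranged from -1.28 to -0.98 across the 5 lines. It was -1.19 on the log2 scale in TIR1 (SE 0.223, edgeR adjusted p = 0.000234), -0.98 in PDS5AB (SE 0.244, edgeR adjusted p = 0.00124) and -1.28 in WAPL (SE 0.226, edgeR adjusted p = 3.51e-05). It was -1.04 in PDS5AB-NIPBL (SE 0.267, edgeR adjusted p = 0.0049) and -1.14 in WAPL-NIPBL (SE 0.231, edgeR adjusted p = 0.00103). The PDS5AB-NIPBL call was lost without treated replicate 3, the library at 0.931 CPM (edgeR adjusted p = 0.0727). The 95% intervals of the differences from the TIR1 effect were -0.48 to 0.90 for PDS5AB, -0.76 to 0.57 for WAPL, -0.58 to 0.89 for PDS5AB-NIPBL and -0.62 to 0.72 for WAPL-NIPBL. None of these differences was called (edgeR adjusted p from 0.693 to 0.949). The antisense gene Otx2os1 overlaps the Otx2 locus without sharing exon bases and had at most 15 counts in a library.

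Otx1 was close to undetected in TIR1, with 4, 0 and 5 counts untreated (0.147, 0 and 0.177 CPM) and 12, 7 and 15 counts treated (0.365, 0.158 and 0.397 CPM). In PDS5AB it went from 6.24, 4.30 and 4.28 CPM to 11, 7.35 and 9.34 CPM. In WAPL it went from 0.371, 0.212 and 0.472 CPM to 1.73, 1.82 and 2.30 CPM. Untreated and treated groups did not overlap in PDS5AB or WAPL, and untreated PDS5AB already lay above every group of another line. PDS5AB-NIPBL went from 1.65, 1.44 and 2.16 CPM to 2.73, 2.27 and 2.97 CPM. WAPL-NIPBL measured 0.190, 0.282 and 0.244 CPM untreated and 0.303, 0.306 and 0.232 CPM treated, which overlapped. The rise was 0.90 on the log2 scale in PDS5AB (SE 0.213, edgeR adjusted p = 0.000754) and 2.47 in WAPL (SE 0.321, edgeR adjusted p = 2.75e-07). Otx1 was not called in TIR1 (log2 change 1.35, SE 0.534, edgeR adjusted p = 0.073) or in PDS5AB-NIPBL (0.60, SE 0.253, edgeR adjusted p = 0.0976). With the replicate number as a block within library set, both passed (edgeR adjusted p = 0.0281 and 0.0252). In WAPL-NIPBL the change was 0.19 (edgeR adjusted p = 0.88).

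Neither rise was shown to exceed the change with auxin alone. The effect minus that in TIR1 was -0.44 in PDS5AB (95% interval -1.63 to 0.74, edgeR adjusted p = 0.613) and 1.12 in WAPL (95% interval -0.36 to 2.61, edgeR adjusted p = 0.286). The Otx1 response was smaller in WAPL-NIPBL, which had added tags and received dTAG-13 as well as auxin, than in WAPL. WAPL-NIPBL held only 4, 8 and 7 Otx1 counts untreated and 7, 10 and 8 treated. The WAPL-NIPBL effect minus the WAPL effect was -2.28 (SE 0.604, 95% interval -3.54 to -1.02, edgeR adjusted p = 0.0197). Among all genes, 5.21% were called in that difference, and Otx1 was the 1 member called. It was called in 8 of 12 fits that left out 1 library, with a highest edgeR adjusted p of 0.0904. The PDS5AB-NIPBL effect minus the PDS5AB effect was -0.30 (95% interval -1.0 to 0.39, edgeR adjusted p = 0.636). The rise in PDS5AB was smaller on the log2 scale than that in WAPL, from a higher start (difference -1.57, SE 0.393, edgeR adjusted p = 0.00631).

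Pou3f1 (ENSMUSG00000090125.3, chr4:124656807-124660655, plus strand) encodes the POU factor OCT6, which promotes neural fate as cells leave naive pluripotency. It rose in PDS5AB, from 5.16, 3.93 and 4.88 CPM to 13.6, 11.6 and 11.3 CPM, and no other group reached these levels. In TIR1 it went from 2.28, 1.50 and 1.28 CPM to 1.06, 0.882 and 0.555 CPM. In WAPL it measured 1.14, 0.882 and 1.77 CPM untreated and 1.27, 0.851 and 1.18 CPM treated. Groups overlapped in WAPL, and did not in PDS5AB or TIR1. PDS5AB-NIPBL measured 1.65, 1.31 and 2.36 CPM untreated and 1.32, 1.52 and 1.54 CPM treated. WAPL-NIPBL measured 0.995, 0.634 and 1.29 CPM untreated and 0.952, 0.674 and 1.02 CPM treated, so both combined lines overlapped.

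The Pou3f1 rise in PDS5AB was 1.38 on the log2 scale (SE 0.212, edgeR adjusted p = 2.44e-06). In TIR1 Pou3f1 fell by 1.02 (SE 0.281, edgeR adjusted p = 0.00926), a call that was lost without untreated replicate 1 (edgeR adjusted p = 0.125) or treated replicate 3 (edgeR adjusted p = 0.0761). The other 3 changes were -0.20, -0.30 and -0.15 for WAPL, PDS5AB-NIPBL and WAPL-NIPBL (edgeR adjusted p = 0.65, 0.53 and 0.85). The PDS5AB effect exceeded that in TIR1 by 2.40 (SE 0.351, edgeR adjusted p = 5.26e-06) and that in WAPL by 1.58 (SE 0.356, edgeR adjusted p = 0.00244). The PDS5AB-NIPBL effect minus the PDS5AB effect was -1.68 (SE 0.346, edgeR adjusted p = 0.0017). That last comparison sets lines with different untreated levels side by side, since Pou3f1 started lower in PDS5AB-NIPBL. The Pou3f1 exon shares bases with Gm2164 on the opposite strand, which had 0 to 2 counts per library. How reads in the shared bases were assigned was not checked.

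Zic2 (ENSMUSG00000061524.8, chr14:122475435-122479852, plus strand) and Sall2 (ENSMUSG00000049532.11, chr14:52311172-52328762, minus strand) encode zinc finger factors. ZIC2 binds enhancers in stem and epiblast cells, and SALL2 belongs to the Spalt family. Both lie on chromosome 14, as does Otx2, at separate positions. In TIR1 Zic2 measured 26.5, 24.5 and 24.4 CPM untreated and 19.3, 22.8 and 24.4 CPM treated and the groups met at 24.4 CPM. In PDS5AB it went from 45.5, 30.6 and 37.5 CPM to 21.9, 16.1 and 19.3 CPM. In WAPL it went from 33.3, 24.9 and 29.1 CPM to 20.9, 17.8 and 15.2 CPM. Groups did not overlap in PDS5AB or WAPL. PDS5AB-NIPBL went from 36.8, 26.2 and 36.2 CPM to 14.3, 10.8 and 10.4 CPM, the lowest ratio among the lines. WAPL-NIPBL went from 24.4, 16 and 21 CPM to 11.5, 8.85 and 10 CPM, again without overlap.

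Zic2 was the member whose fall differed most often from TIR1. For the combined lines, the difference from TIR1 also carries dTAG-13 and their added tags. The log2 change was -0.18 in TIR1 (SE 0.169, edgeR adjusted p = 0.503), -0.99 in PDS5AB (SE 0.17, edgeR adjusted p = 3.01e-05) and -0.70 in WAPL (SE 0.171, edgeR adjusted p = 0.00226). It was -1.49 in PDS5AB-NIPBL (SE 0.18, edgeR adjusted p = 9.27e-07) and -1.02 in WAPL-NIPBL (SE 0.181, edgeR adjusted p = 0.000428). Beyond the TIR1 effect, the fall was -0.81 in PDS5AB (SE 0.239, edgeR adjusted p = 0.0132) and -1.31 in PDS5AB-NIPBL (SE 0.246, edgeR adjusted p = 0.000902). In WAPL-NIPBL it was -0.84 (SE 0.248, edgeR adjusted p = 0.0389), called in 4 of 12 fits that left out 1 library (highest edgeR adjusted p = 0.111). In WAPL it was -0.52 (SE 0.24, edgeR adjusted p = 0.131), and passed with the block within library set (edgeR adjusted p = 0.0248). The PDS5AB-NIPBL effect minus the PDS5AB effect was -0.50 (95% interval -1.01 to 0.01, edgeR adjusted p = 0.219). It passed with the replicate block over all libraries (edgeR adjusted p = 0.0402) and not with the block within library set (edgeR adjusted p = 0.0525).

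Sall2 moved little. It went from 15.2, 11.8 and 14.8 CPM to 10.8, 8.59 and 8.49 CPM in TIR1, and from 16.1, 13.9 and 15.1 CPM to 12.7, 10.5 and 8.82 CPM in PDS5AB. Neither pair of groups overlapped. WAPL measured 13.2, 12.9 and 12.9 CPM untreated and 12.7, 12.8 and 12.2 CPM treated. The combined lines ranged from 9.30 to 14.9 CPM, with overlap in each. Sall2 fell by 0.59 on the log2 scale in TIR1 (SE 0.136, edgeR adjusted p = 0.00202) and by 0.50 in PDS5AB (SE 0.135, edgeR adjusted p = 0.00264). For WAPL, PDS5AB-NIPBL and WAPL-NIPBL the changes were -0.05, 0.02 and -0.23 (edgeR adjusted p = 0.81, 0.95 and 0.37). The effect minus that in TIR1 was 0.54 in WAPL (edgeR adjusted p = 0.0413) and 0.61 in PDS5AB-NIPBL (edgeR adjusted p = 0.0385). Sall2 thus fell in TIR1 and had no called change in those degron lines. The calls of these 2 differences were kept in 2 and 5 of 12 fits that left out 1 library, with highest edgeR adjusted p of 0.115 and 0.167. The PDS5AB-NIPBL effect minus the PDS5AB effect was 0.52, and the PDS5AB effect minus the WAPL effect -0.45 (edgeR adjusted p = 0.0843 and 0.125, and 0.0242 and 0.0422 with the block within library set).

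Sox3 (ENSMUSG00000045179.9, chrX:60891366-60893430, minus strand, 1 exon) encodes a SOXB1 factor related to SOX2 and is known from epiblast and neural progenitors. Its highest levels were in PDS5AB, at 8.77, 4.69 and 3.84 CPM untreated and 11.3, 5.85 and 5.62 CPM treated, which overlapped. Replicate 1 was the highest library in each of these groups. TIR1 went from 1.91, 1.28 and 1.17 CPM to 0.760, 0.588 and 0.767 CPM, and WAPL from 2.16, 1.27 and 2.05 CPM to 3.07, 2.67 and 2.87 CPM. Neither of those pairs overlapped. PDS5AB-NIPBL measured 2.26, 1.22 and 3.14 CPM untreated and 1.09, 1.52 and 2.18 CPM treated. WAPL-NIPBL measured 1.85, 1.06 and 1.54 CPM untreated and 1.99, 2.17 and 1.94 CPM treated.

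The Sox3 changes were -1.05 in TIR1 (SE 0.399), 0.40 in PDS5AB (SE 0.286) and 0.65 in WAPL (SE 0.334) on the log2 scale, none called (edgeR adjusted p = 0.0626, 0.265 and 0.145). With the replicate number as a block within library set, all 3 passed (edgeR adjusted p = 0.00313, 0.0364 and 0.00887). Leaving out 1 library moved the PDS5AB change between -0.01 and 0.83 (highest edgeR adjusted p = 0.973). The differences from TIR1 were called, at 1.45 for PDS5AB (SE 0.491, edgeR adjusted p = 0.0287) and 1.70 for WAPL (SE 0.52, edgeR adjusted p = 0.0197). They were kept in 6 and 9 of 12 fits that left out 1 library, with highest edgeR adjusted p of 0.133 and 0.0842. The PDS5AB difference was also lost with only the groups compared (edgeR adjusted p = 0.0637). For WAPL-NIPBL the difference was 1.53 (edgeR adjusted p = 0.0849), and it passed with the block (edgeR adjusted p = 0.0021). For PDS5AB-NIPBL against PDS5AB it was -0.87 (edgeR adjusted p = 0.262, and 0.025 with the block).

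Fgf5 (ENSMUSG00000029337.2, chr5:98254184-98277030, plus strand) encodes a secreted FGF ligand and is the classical marker of post-implantation epiblast. It had 0 to 19 counts per library, at most 0.641 CPM. Untreated PDS5AB held 19, 10 and 19 counts and treated PDS5AB 13, 6 and 6. Untreated PDS5AB-NIPBL held 0, 13 and 16 counts, and treated PDS5AB-NIPBL 0, 2 and 3. The highest counts were therefore in PDS5AB lines before treatment, with 1 library of PDS5AB-NIPBL at 0. TIR1 held 1, 0 and 0 counts untreated and 1, 4 and 0 treated, and WAPL held 1, 4 and 6 untreated and 9, 8 and 7 treated. WAPL-NIPBL held 3, 4 and 0 counts untreated and 0, 0 and 5 treated. The PDS5AB-NIPBL groups overlapped, with replicate 1 at 0 in both, and the change was not called (edgeR adjusted p = 0.104, and 0.0285 with no filter).

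Across all comparisons of treatment effects, members were called in 3 of 8 cases for PDS5AB minus TIR1 (Pou3f1, Sox3 and Zic2), where 26.2% of all genes were called. For WAPL minus TIR1, 2 were called (Sox3 and Sall2, background 20.6%), and for PDS5AB-NIPBL minus TIR1, 2 (Zic2 and Sall2, background 10%). For WAPL-NIPBL minus TIR1, 1 was called (Zic2, background 6.85%). For PDS5AB-NIPBL minus PDS5AB, 1 was called (Pou3f1, background 9.51%), and for PDS5AB minus WAPL, 2 (Otx1 and Pou3f1, background 12.5%). For WAPL-NIPBL minus WAPL, 1 was called (Otx1), as given above. In all, 12 of 56 differences were called.

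**Figure D3:**
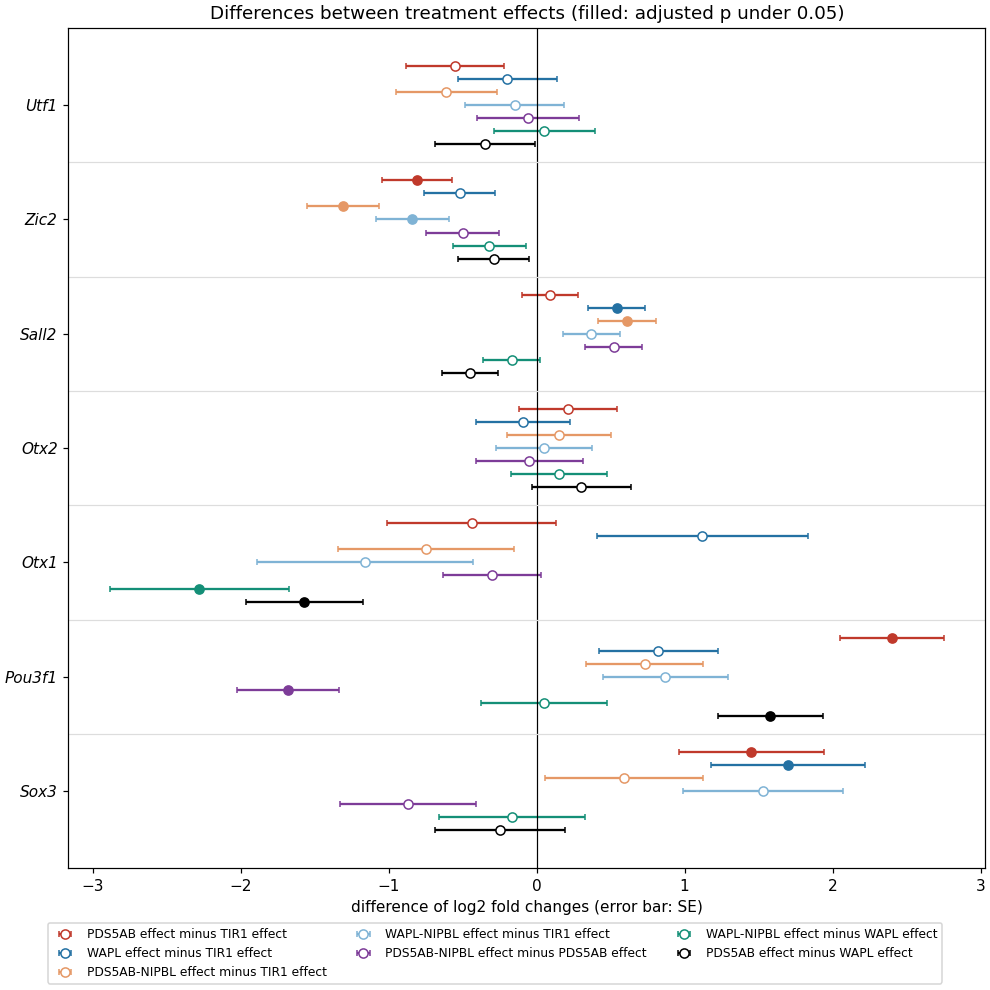
Differences between treatment effects for 7 genes (horizontal axis: difference of log2 fold changes), with Fgf5 left out for its low counts. Points are edgeR estimates, error bars the SE, and filled points have an adjusted p under 0.05. The largest is Pou3f1 in PDS5AB minus TIR1, at 2.40, and the most negative is Otx1 in WAPL-NIPBL minus WAPL, at -2.28.

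Before any treatment, the PDS5AB line already stood apart from TIR1. Of 8 members, 5 were higher (Otx1, Sox3, Pou3f1, Zic2 and Fgf5) and Otx2 was lower, where 31.8% of all genes were called. Otx1 was higher by 5.37 on the log2 scale (SE 0.369, edgeR adjusted p = 2.15e-13), against 4, 0 and 5 counts in TIR1. Sox3 was higher by 1.98 (SE 0.334, edgeR adjusted p = 2.81e-05) and Pou3f1 by 1.46 (SE 0.243, edgeR adjusted p = 1.25e-05). Zic2 was higher by 0.59 (SE 0.168, edgeR adjusted p = 0.00765), a call lost when replicate 1 of untreated PDS5AB was left out (edgeR adjusted p = 0.0659). Fgf5 was at least 4.29-fold higher, set against the floor of 3 counts per library in TIR1 (edgeR adjusted p = 0.00171). Otx2 was lower, at -0.78 (SE 0.221, edgeR adjusted p = 0.00636). Utf1 at 0.31 and Sall2 at 0.11 were not called (edgeR adjusted p = 0.332 and 0.6). Utf1 passed with no filter (edgeR adjusted p = 0.00154), the fit with far smaller p-values for Utf1. These untreated groups belong to the same library set.

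PDS5AB-NIPBL, which carries the same PDS5A and PDS5B tags, had 3 members called against TIR1, where 34% of all genes were called. Otx1 was higher by 3.89 (SE 0.414, edgeR adjusted p = 6.23e-09) and Fgf5 was at least 3.13-fold higher (edgeR adjusted p = 0.00768), with 1 library at 0 counts and groups that overlapped. Otx2 was lower, at -0.99 (SE 0.227, edgeR adjusted p = 0.000974). Pou3f1 differed by 0.09 and was not called (edgeR adjusted p = 0.83). With the block within library set, Zic2 at 0.40 and Sox3 at 0.62 passed as well (edgeR adjusted p = 0.0128 and 0.0195, against 0.0693 and 0.187 without it). In the lines with tagged WAPL, 1 member was called in each. Otx1 was higher by 1.57 in WAPL (SE 0.541, edgeR adjusted p = 0.0482), where 13.9% of all genes were called, and the call was kept in 2 of 6 fits that left out 1 library. Pou3f1 was lower in WAPL-NIPBL, at -0.79 (SE 0.291, edgeR adjusted p = 0.0403, background 27.8%), with overlapping groups and the call kept in 2 of 6 such fits and lost with only the groups compared (edgeR adjusted p = 0.0584). Zic2 in WAPL-NIPBL, at -0.30, passed with the replicate block over all libraries or with no filter (edgeR adjusted p = 0.0422 and 0.046, against 0.207). Utf1 in WAPL-NIPBL, at -0.42, passed with no filter and with only the groups compared (edgeR adjusted p = 9.53e-05 and 0.0297, against 0.187). The fit with no filter gave far smaller p-values for the called falls of both genes than the main fit. These 3 comparisons cross the library sets and share the TIR1 libraries with each other and with PDS5AB.

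**Figure D4:**
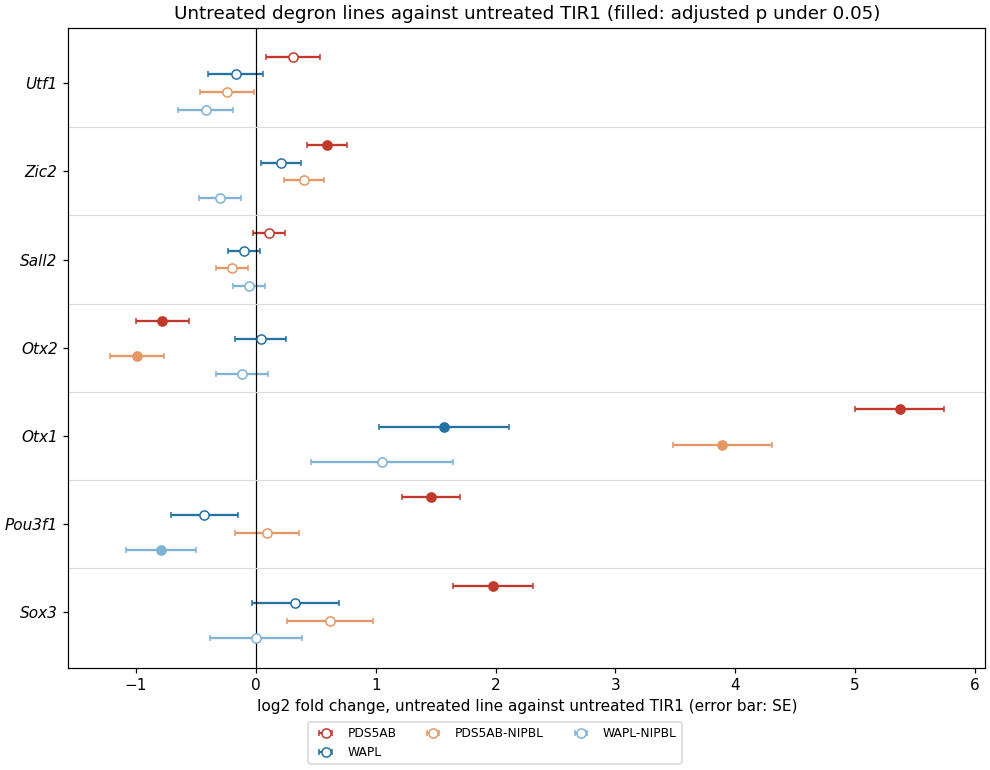
Untreated degron lines against untreated TIR1 for 7 genes (horizontal axis: log2 fold change), with Fgf5 left out for its low counts. Points are edgeR estimates, error bars the SE, and filled points have an adjusted p under 0.05. Otx1 lies farthest to the right, at 5.37 in PDS5AB and 3.89 in PDS5AB-NIPBL, and Otx2 lies to the left in those lines.

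The members did not share a single pattern over the 10 groups. As a description over the 10 group means, Pearson's r was 0.86 between Utf1 and Zic2, 0.83 between Utf1 and Otx2, 0.85 between Pou3f1 and Sox3, and -0.66 between Otx1 and Otx2. By the same measure the gene most like Utf1 among those with at least 50 mean counts was Eras (r = 0.981), a RAS-family gene of stem cells. Pou3f1 was most like Map1lc3a (r = 0.991), Otx1 most like Tcaf1 (r = 0.981) and Sox3 most like Calca (r = 0.968). For Zic2 it was 2610035F20Rik (r = 0.965), and for Fgf5, whose counts were low, it was Dcun1d4 (r = 0.967). Otx2 was most like Mcm7 (r = 0.944) and Sall2 most like Gm13456 (r = 0.943). Each r for a most alike gene is the highest of very many over 10 points, so the search alone yields high values. These points share libraries and lines.

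Counts for lists of other genes in the transition are to be read against the share of all tested genes called. That share was 10.3% higher and 9.46% lower in TIR1, 25.7% and 20.1% in PDS5AB, and 16.9% and 15.7% in WAPL. It was 11.3% and 7.94% for PDS5AB-NIPBL and 5.13% and 3.39% for WAPL-NIPBL. Of 20 further formative and primed epiblast genes, 2 rose and 9 fell in TIR1, 6 and 7 in PDS5AB, 9 and 5 in WAPL, 4 and 7 in PDS5AB-NIPBL, and 4 and 3 in WAPL-NIPBL. Some of these counts, such as the 6 higher in PDS5AB, are near the share over all genes. The list's median log2 change was -0.28, -0.08, 0.22, -0.25 and -0.01 in these lines, in that order. Wnt8a, a WNT ligand, rose by 2.15 on the log2 scale in PDS5AB (SE 0.212), by 1.97 in WAPL (SE 0.244), by 2.35 in PDS5AB-NIPBL (SE 0.282) and by 2.02 in WAPL-NIPBL (SE 0.417). In TIR1 its change was 0.01 and was not called. Lef1, a nuclear effector of WNT signalling, rose by 2.09 in TIR1 (SE 0.242) and by 2.14 in WAPL (SE 0.188), and by 0.59 and 0.79 with PDS5AB-NIPBL and WAPL-NIPBL. In PDS5AB its change was -0.04 and was not called. Sox4 rose by 1.30 in PDS5AB (SE 0.129), 1.43 in WAPL (SE 0.132), 0.61 in PDS5AB-NIPBL and 0.81 in WAPL-NIPBL. Dnmt3l, a cofactor of DNA methylation, fell by 1.77 in TIR1 (SE 0.135), by 0.63 in PDS5AB and in WAPL-NIPBL, and by 0.69 in PDS5AB-NIPBL, and was not called in WAPL at -0.17. Tcf15, an early priming factor, fell in all 5 lines, from -0.30 in TIR1 to -1.52 in PDS5AB-NIPBL (SE 0.118). Zic5 fell in the 4 degron lines, by 0.80 to 1.04.

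A further list held 18 genes of the FGF and ERK pathway, ligands and receptors as well as feedback genes that respond to ERK. Of these, 3 were called higher and 3 lower in TIR1, 7 and 6 in PDS5AB, and 2 and 7 in WAPL. The counts were 4 and 6 in PDS5AB-NIPBL, and 1 and 5 in WAPL-NIPBL. The higher calls in WAPL and WAPL-NIPBL were near or below the share over all genes, and the list's median changes were between -0.06 and 0.04. Spry4, a feedback inhibitor whose transcription follows ERK activity, had the largest change of the list in every line. It fell by 2.61 in TIR1 (SE 0.42), 5.54 in PDS5AB (SE 0.537) and 3.41 in WAPL (SE 0.505), and it fell by 4.52 in PDS5AB-NIPBL (SE 0.519). In WAPL-NIPBL Spry4 fell by 3.69 (SE 0.616). Dusp6, an ERK phosphatase, fell in all 5 lines, by 0.88 in TIR1 (SE 0.203), 2.36 in PDS5AB (SE 0.226) and 1.36 in WAPL (SE 0.214), and by 2.14 and 1.41 with PDS5AB-NIPBL and WAPL-NIPBL. Etv4, an ETS factor, also fell in all 5, by 1.38 in TIR1 (SE 0.275), 1.90 in PDS5AB (SE 0.299) and 1.74 in WAPL (SE 0.289), and by 1.50 and 1.57 with PDS5AB-NIPBL and WAPL-NIPBL. Other genes of the list did not follow these 3. Egr1 and Dusp4 rose in PDS5AB, by 1.96 (SE 0.259) and 0.91 (SE 0.244), and were not called elsewhere. Spry2 rose by 0.43 in TIR1 and fell by 0.92 in PDS5AB and 0.60 in WAPL. Fgfr1 rose in the 4 degron lines, by 0.45 to 0.97. Etv5 was not called in any line.

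Naive pluripotency genes fell in the degron lines. The list also holds the core factors Pou5f1 and Sox2, and Fgf4, which is in the FGF list too. Of 16, PDS5AB had 15 called lower, WAPL and PDS5AB-NIPBL had 13 each, and WAPL-NIPBL had 12. TIR1 had 4 higher and 3 lower. Over all genes the share called lower was 20.1%, 15.7%, 7.94% and 3.39% in those 4 lines, and 9.46% in TIR1, with 10.3% higher. The list's median log2 change was -0.77, -0.56, -0.47 and -0.34 in the degron lines, in that order, and -0.01 in TIR1. Prdm14 fell by 1.42, 1.27, 1.01 and 0.68 in those 4 lines, and in TIR1 its change was 0.07 and was not called. Dppa3 rose by 1.51 in TIR1 (SE 0.19), fell by 0.77 in WAPL (SE 0.205) and was not called in the other 3 lines. Among 11 regulators of the exit from naive pluripotency, 6 were lower and 2 higher in both PDS5AB and WAPL, 4 lower and 1 higher in PDS5AB-NIPBL, 3 lower in WAPL-NIPBL, and 1 each way in TIR1, where the share over all genes is close to that. Every rise or fall given for a gene of these lists passed at an edgeR adjusted p under 0.05.

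**Figure D5:**
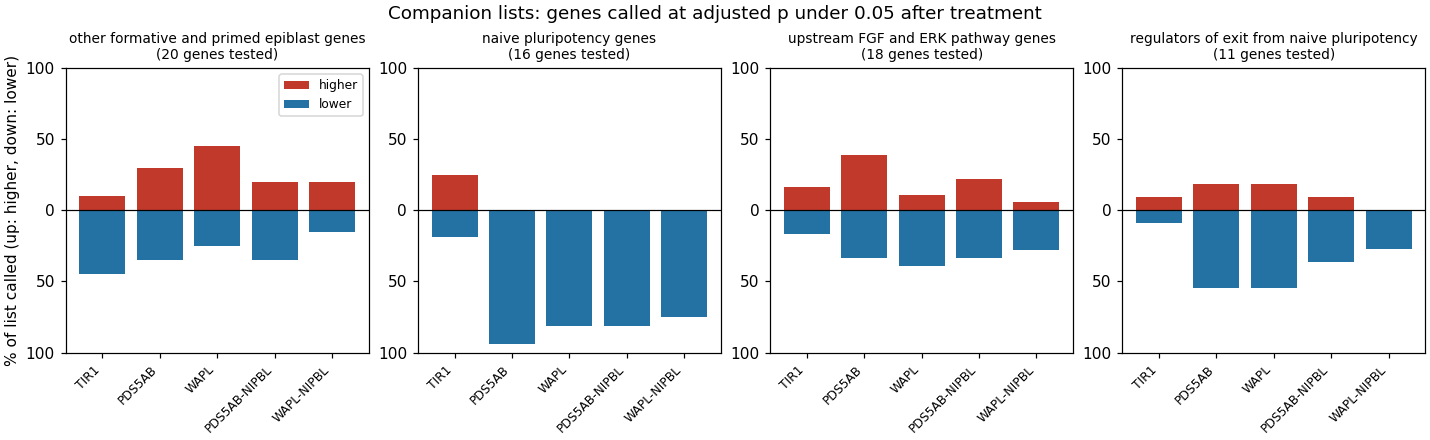
Share of each gene list called after treatment (vertical axis: percent of the list, higher above 0 and lower below it) in the 5 lines. Lists hold 20, 16, 18 and 11 tested genes from left to right. Naive genes were called lower in 12 to 15 of 16 cases in the degron lines, while the formative and FGF lists had calls in both directions.

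The stem cell identity of the samples was checked with 6 markers, all detected in every group. All 6 belong to the naive list above, so their lower sums are not a separate observation. Their summed level was 3650 to 4400 CPM in untreated libraries and treated TIR1, and 2110 to 2340 CPM in treated PDS5AB, 2560 to 2790 CPM in treated WAPL, 3060 to 3260 CPM in treated PDS5AB-NIPBL and 2980 to 3060 CPM in treated WAPL-NIPBL. Of 7 primitive endoderm markers, 1 rose in TIR1, 4 in PDS5AB, 5 in WAPL and 3 in each combined line, where 10.3%, 25.7%, 16.9%, 11.3% and 5.13% of all genes were called higher, in that order of lines. Their sum went from 24.4 to 27.3 CPM up to 59.0 to 72.6 CPM in PDS5AB and from 10.3 to 13.2 CPM up to 38.1 to 53.8 CPM in WAPL. It went from 10.5 to 13.1 CPM up to 30.1 to 36 CPM in PDS5AB-NIPBL, from 5.78 to 6.21 CPM up to 14.3 to 15.7 CPM in WAPL-NIPBL, and from 7.76 to 8.71 CPM up to 10.1 to 11.2 CPM in TIR1. None of the 7 was at 0 in any group.

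The counts of other lineage markers are to be read against the shares over all genes. Of all tested genes, 10.3% were called higher and 9.46% lower in TIR1, 25.7% and 20.1% in PDS5AB, and 16.9% and 15.7% in WAPL. The shares were 11.3% and 7.94% in PDS5AB-NIPBL and 5.13% and 3.39% in WAPL-NIPBL. A count of 1 among 6 markers is near or below these shares in PDS5AB and WAPL. Among the neural progenitor markers, 4 were tested, Sox1, Pax6, Nes and Pax3. In PDS5AB, where Pou3f1 and Otx1 rose, 2 rose and 1 fell, with Pax3 higher by 2.58 on the log2 scale (SE 0.526) and Sox1 lower, at -0.98 (SE 0.154). In PDS5AB-NIPBL 2 also rose and 1 fell, with Sox1 lower, at -1.13 (SE 0.173), and Pax3 higher, from a mean of 0.0592 to 0.393 CPM (edgeR adjusted p = 0.00545). No fold is given for Pax3 there, as no untreated library had over 3 counts. In WAPL 1 rose, Pax6 at 3.22 (SE 0.465), and 1 fell, Sox1 at -1.33 (SE 0.156). Sox1 was the 1 marker of the 4 called in TIR1, at -0.48 (SE 0.151), and in WAPL-NIPBL, at -0.91 (SE 0.166). Pax3 was at 0 in untreated TIR1. Of 6 mesoderm markers, 2 rose in TIR1, where T (Brachyury) rose by 2.02 (SE 0.223). In PDS5AB 1 rose and 1 fell (Eomes, -0.62), in WAPL 2 rose and 1 fell (Gsc, -1.14), in PDS5AB-NIPBL 1 rose and 1 fell (Eomes, -0.80), and in WAPL-NIPBL 1 rose. Of 7 trophoblast markers, 6 were tested, and 3 rose in TIR1, among them Cdx2 by 2.78 (SE 0.225). In both PDS5AB and WAPL 1 rose and 2 fell, in PDS5AB-NIPBL 2 rose and 2 fell, and in WAPL-NIPBL 1 rose and 1 fell. Krt7, a keratin, rose by 1.27 in TIR1, by 2.64 in PDS5AB and by 2.20 in WAPL, and by 1.62 and 0.97 with PDS5AB-NIPBL and WAPL-NIPBL. Tfap2c rose by 0.64 in TIR1 and fell by 0.55 in PDS5AB, by 2.15 in WAPL, and by 1.33 and 1.34 with PDS5AB-NIPBL and WAPL-NIPBL. The part of these markers in the members' changes was not tested.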

How the data were processed

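RNA was measured in 30 libraries of 5 lines, 3 per group. The deposited values are raw counts per gene, made by the authors with featureCounts (version 2.0.1, paired-end mode, GENCODE vM23 on GRCm38, no option for strand or multi-mapping reads), per the file headers. Alignment used STAR (2.7.7a), per the submitters' processing notes. Counting without strand means that reads of overlapping antisense genes cannot be told apart. Exon lengths come from the same deposited table.

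Symbols were matched for 55154 of 55421 genes (99.5%). Genes passing filterByExpr (minimum count 10) were fitted over all 30 libraries with edgeR 4.0.16 (TMM, robust quasi-likelihood, 20 residual degrees of freedom) in R 4.3.3, and p-values were adjusted over all 19868 tested genes for each of 16 contrasts. A floor of 3 counts per library bounded folds against groups at or under it, and 95% intervals cover the spread between libraries.

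Every member is described. From each companion list, the 2 genes with the largest called change per effect were eligible to be named, with their values in the other lines, and from each member the most alike gene with at least 50 mean counts. Egr1, Dusp4, Spry2, Fgfr1 and Etv5 were named besides, as genes of the FGF and ERK list with other directions or no call. Members and lists were chosen with earlier results of these data known. Alternatives were DESeq2 1.42.0, its size factors, no filter, fitting only the groups compared, replicate blocks and leaving out each library. With no filter, p-values for the called falls of Utf1 and Zic2 were far smaller than in the main fit. For Zic2 in PDS5AB the edgeR adjusted p was 1.53e-20, against 3.01e-05, and the reason was not tested. Same-numbered treated and untreated libraries correlated in their deviations from group means by 0.109 to 0.333 in the 4 degron lines and by -0.0102 to 0.0574 in TIR1, whose groups lie in different library sets. So a block within library set was fitted, which moved the counts of members called (4, 6, 4 and 3 without it in TIR1, PDS5AB, WAPL and PDS5AB-NIPBL, and 6, 7, 5 and 4 with it). No library pair had identical counts.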

Additional observations from a re-analysis of the deposited data

Results flagged for a closer look

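Differences between treatment effects that passed the test (edgeR, adjusted p under 0.05) are listed here as differences of log2 changes. Relative to TIR1, the PDS5AB effect differed by 2.40 for Pou3f1, -0.81 for Zic2 and 1.45 for Sox3. The WAPL effect differed from TIR1 by 1.70 for Sox3 and 0.54 for Sall2. The PDS5AB-NIPBL effect differed from TIR1 by -1.31 for Zic2 and 0.61 for Sall2, and the WAPL-NIPBL effect by -0.84 for Zic2. These comparisons share the TIR1 libraries, and the TIR1 effect crosses the library sets. Between degron lines, Pou3f1 differed by -1.68 for PDS5AB-NIPBL minus PDS5AB and by 1.58 for PDS5AB minus WAPL. Otx1 differed by -2.28 for WAPL-NIPBL minus WAPL and by -1.57 for PDS5AB minus WAPL.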

How the results depend on the processing

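No direction of a called value reversed. Of 20 called treatment effects, 18 were called under every alternative that tested them, as were 8 of 11 called baselines and 6 of 12 called differences. Fgf5 in the PDS5AB and PDS5AB-NIPBL baselines was not tested with only the groups compared. The count of members called against TIR1 was 0 for WAPL (1 as reported) with only the groups compared, where its 1 called member, Otx1, was filtered out and not tested. It was 5 for PDS5AB-NIPBL (3) with no filter and with the block within library set, and for WAPL-NIPBL (1) 3 with no filter and 2 with the replicate block. For the WAPL-NIPBL effect minus TIR1 (1) it was 2 with no filter, either replicate block, DESeq2 or only the groups compared. For PDS5AB-NIPBL minus PDS5AB (1) it was 3 with no filter and with either replicate block. Leaving out 1 library gave 0 to 1 for the WAPL and WAPL-NIPBL baselines, WAPL-NIPBL minus TIR1 and WAPL-NIPBL minus WAPL, 0 to 2 for WAPL minus TIR1, 1 to 2 for PDS5AB-NIPBL minus TIR1 and for PDS5AB-NIPBL minus PDS5AB, 2 to 4 for the PDS5AB-NIPBL effect, and 3 to 5 for the TIR1 effect. The cause was not tested. Without PDS5AB replicate 1 in both groups, an alternative chosen after seeing the data, the Zic2 baseline gave an edgeR adjusted p of 0.0599. Counts were low for Fgf5 (0 to 19 per library) and for Otx1 in TIR1 (0 to 15), which limits the precision of their values.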
